A study of Mus musculus with 10 samples.

Results

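The isocitrate dehydrogenases are the 5 mouse genes Idh1, Idh2, Idh3a, Idh3b and Idh3g. They were taken as the probe sets to which the platform annotation gives 1 of these symbols and no other, and all 5 were found, among 19938 genes with such a probe set on the array. Each gene had 1 probe set: 10355214 for Idh1 on chromosome 1, 10564857 for Idh2 on chromosome 7, 10585417 for Idh3a on chromosome 9, 10487629 for Idh3b on chromosome 2 and 10605090 for Idh3g on chromosome X. All 5 passed the level filter described below and were among the 15662 genes tested.

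RNA came from 5 mouse acute myeloid leukaemia lines driven by MLL-AF9, a fusion of the chromatin regulator MLL with AF9, and each line was an independent primary leukaemia. All 5 lines, the wild-type ones included, carried Cre-ER, a Cre recombinase that 4-hydroxytamoxifen (4-OHT) switches on. Lines 10949, 10950 and 10986 held a floxed allele (Zfx fl/y) of the X-linked zinc finger factor Zfx and are called fl lines, and lines 10977 and 10980 held the wild-type allele (wt/y) and are called wt lines. Leukaemia cells were taken from moribund mice, cultured for 72 h with 10 nM 4-OHT or with ethanol vehicle, and sorted for the surface receptor c-Kit. The groups were fl 4-OHT and fl vehicle, with 3 arrays each, and wt 4-OHT and wt vehicle, with 2 arrays each, so that each line gave 1 array of each treatment. The series title states the question as the effect of deleting Zfx. The sources used here do not give the age of the mice, the promoter that drives Cre-ER or the deleted part of Zfx.

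Isocitrate dehydrogenases turn isocitrate into 2-oxoglutarate. Idh1, in the cytosol and peroxisomes, and Idh2, in the mitochondrial matrix, are separate enzymes that make NADPH and can run in both directions. Idh3a, Idh3b and Idh3g encode the catalytic and the regulatory subunits of the NAD-dependent enzyme of the mitochondrial citric acid cycle. In human acute myeloid leukaemia IDH1 and IDH2 are recurrently mutated at the active site, and the altered enzymes make 2-hydroxyglutarate, which competes with 2-oxoglutarate at the dioxygenases that demethylate histones and DNA. The arrays measured RNA levels of the mouse genes and no mutation, enzyme activity or metabolite.

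Idh2 had the largest difference between treatments among the 5 genes, and Idh1 is the separate enzyme of the same reaction, so their start-site windows are shown as the stretches where a promoter-bound factor would be looked for. They come from RefSeq (GRCm38.p6), run from 250 bases before to 50 bases after an annotated start, and are on the minus strand. Capitals mark CG dinucleotides, the sites of DNA methylation in mammals. The Idh2 window is chr7:80115301-80115600, and the 2 Idh1 windows are chr1:65179093-65179392 and chr1:65186430-65186729. In RefSeq the Idh2 gene extends to 80118608, which on the minus strand is upstream of its window. No window here covers that end of Idh2.
Idh2: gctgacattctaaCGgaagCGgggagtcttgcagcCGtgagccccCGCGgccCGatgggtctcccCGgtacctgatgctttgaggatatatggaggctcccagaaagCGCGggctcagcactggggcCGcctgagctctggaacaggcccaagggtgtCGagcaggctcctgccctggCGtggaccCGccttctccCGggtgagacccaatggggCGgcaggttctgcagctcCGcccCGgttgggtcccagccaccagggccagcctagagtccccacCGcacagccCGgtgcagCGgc
Idh1, start at the lower coordinate: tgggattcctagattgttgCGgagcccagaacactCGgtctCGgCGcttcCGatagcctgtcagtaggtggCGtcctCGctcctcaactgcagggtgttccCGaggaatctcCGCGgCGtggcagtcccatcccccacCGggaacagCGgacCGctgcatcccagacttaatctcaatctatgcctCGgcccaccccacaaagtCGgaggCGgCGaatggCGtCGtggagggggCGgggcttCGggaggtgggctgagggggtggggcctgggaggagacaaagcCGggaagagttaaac
Idh1, start at the higher coordinate: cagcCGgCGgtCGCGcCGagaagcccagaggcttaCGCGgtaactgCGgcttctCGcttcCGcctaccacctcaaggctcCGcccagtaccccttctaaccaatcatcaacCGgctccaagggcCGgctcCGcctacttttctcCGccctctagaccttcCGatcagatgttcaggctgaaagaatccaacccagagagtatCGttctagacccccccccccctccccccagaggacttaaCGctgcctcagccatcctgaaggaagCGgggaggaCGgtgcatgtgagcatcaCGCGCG

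The Idh2 window held 20 CG dinucleotides and 68.3% G and C, and the Idh1 windows held 23 CG dinucleotides each, with 63.7% and 62.0% G and C. Of the other members, Idh3b (18 CG dinucleotides, 50.3% G and C) and Idh3g (27 CG dinucleotides, 60.3% G and C) had a window in the table. Across 32851 windows of the same length the medians were 7 CG dinucleotides and 52.7% G and C, so all 5 windows of the 4 matched members lay above the median in CG count. The letters AGGCCT, the core of the motif reported for ZFX, read the same on both strands. They occurred in 10.3% of all windows and in none of the 5. The arrays hold no binding data, and a window without these letters says nothing of the factor.

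Levels are given as log2 of the deposited signal. Precision is limited by the number of arrays: the standard error (SE) of a change had a median over genes of 0.12 for fl lines and 0.14 for wt lines. The array of line 10986 with vehicle was unlike the others. Its position on the first principal component was 49.4, against -20.4 to 23.0 for the other 9 arrays, and it correlated with the others at 0.9615 on average, where they had 0.979 to 0.985. For the members and the gene lists, fl values without line 10986 or without that array are given too where they move. The probe set of Zfx was no lower in fl 4-OHT cells, with a log2 difference of 0.37 from fl vehicle (SE 0.16, limma adjusted p = 0.407). The sources used here do not place its probes relative to the deleted part, so the Zfx levels can check neither deletion nor labels. Kit, the gene of the sorted receptor, had log2 levels between 8.35 and 9.94 on the 10 arrays, above the level filter of 6.23. All 12 MLL-AF9 myeloid progenitor markers passed that filter. So did most markers of other types with a probe set, 12 of 13 for monocytes and macrophages, 10 of 11 for mature granulocytes, 7 of 8 for mast cells and basophils, 6 of 7 for erythroid cells and megakaryocytes and 6 of 8 for stroma and endothelium. Of the lymphoid markers 4 of 10 passed.

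Idh2 encodes the mitochondrial NADP-dependent enzyme and was lower in each of the 3 fl lines after 4-OHT, at 44.5% to 57.0% of the vehicle signal. On the fl 4-OHT arrays Idh2 had log2 levels of 10.05 in line 10949, 10.39 in line 10950 and 9.93 in line 10986, against 10.89, 11.20 and 11.10 on the fl vehicle arrays of the same lines. The wt 4-OHT arrays had 10.97 in line 10977 and 11.82 in line 10980, against 11.03 and 11.30 on the wt vehicle arrays. The 3 fl 4-OHT arrays were the lowest of all 10 and overlapped with no other group, and the wt 4-OHT array of line 10980 was the highest. A position below the other 7 arrays on all 3 fl 4-OHT arrays was shared by 604 of 15662 genes (3.86%). In linear signal Idh2 averaged 1127 ± 194 in fl 4-OHT cells and 2149 ± 238 in fl vehicle cells (SD, n = 3 each), and 2808 ± 1134 in wt 4-OHT cells and 2305 ± 306 in wt vehicle cells (SD, n = 2 each).

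**Figure D1:**
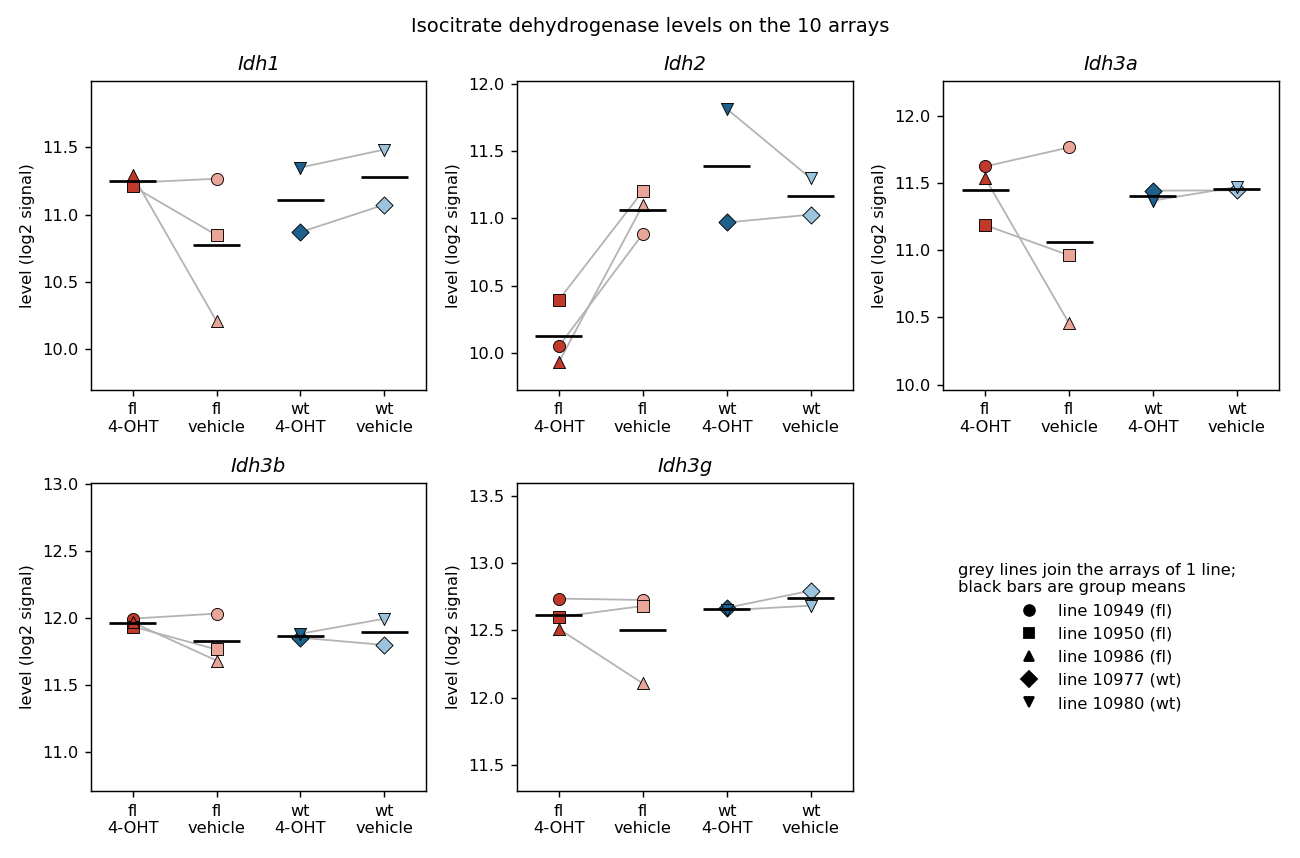
Log2 signal of the 5 isocitrate dehydrogenase genes (vertical axis, the same span in each panel) by group (horizontal axis), with 1 point per array, a marker shape per line, grey lines that join the arrays of a line and black bars at the group means. The 3 fl 4-OHT arrays of Idh2, between 9.93 and 10.39, lie below the other 7, while the vehicle array of line 10986 is the lowest for the other 4 genes.

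By line, the Idh2 signal with 4-OHT was 56.0%, 57.0% and 44.5% of that with vehicle in lines 10949, 10950 and 10986, as log2 changes of -0.84, -0.81 and -1.17. In the wt lines it was 96.0% in line 10977 and 143.2% in line 10980, as log2 changes of -0.058 and 0.52. Within each line these changes can be placed among all genes tested. In lines 10949, 10950 and 10986 only 0.638%, 0.843% and 0.192% of genes changed as far down or further, against 35.1% in line 10977 and 99.5% in line 10980. In all, 22 genes (0.14%), Idh2 included, were lower in each of the 3 fl lines by at least the smallest of the 3 Idh2 differences. In bulk RNA, fewer cells of a type and less RNA per cell cannot be told apart.

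The limma estimate for Idh2 in the fl lines was a log2 difference of -0.94 (SE 0.14, 95% interval -1.28 to -0.60, n = 3 line pairs), a 1.92-fold lower signal. It ranked 65th of 15662 genes by p and did not pass limma's test at a threshold of 0.05 after Benjamini-Hochberg adjustment (adjusted p = 0.0836). At this threshold 24 genes were called in the fl lines, which is 0.153% of those tested, and no isocitrate dehydrogenase was among them. In the wt lines the estimate for Idh2 was 0.23 (SE 0.17, 95% interval -0.18 to 0.64, n = 2 lines, limma adjusted p = 1.0). No gene was called in the wt lines (0%), where 23 genes had an unadjusted p under 0.05. This test takes its estimate of spread from fl and wt lines together. The SD of the log2 changes over all genes tested was 0.50 in line 10986, against 0.17 and 0.19 in lines 10977 and 10980. The wt p values and intervals therefore do not measure the spread of the wt lines alone. On the wt arrays alone 0 genes were called. Without line 10949 the fl log2 difference of Idh2 was -0.99 and did not pass (limma adjusted p = 0.336). Without line 10950 it was -1.0 and did not pass (adjusted p = 0.250). Nor did it pass on the fl arrays alone (adjusted p = 0.153). The call on Idh2 turned with line 10986, the line of the array that stood apart. Without that line the log2 difference was -0.82 and passed (limma adjusted p = 0.0251), with 440 genes called (2.81%), and without its vehicle array and with no line block it was -0.92 and did not pass (adjusted p = 0.249).

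The fl change minus the wt change was -1.17 for Idh2 on the log2 scale (SE 0.22, 95% interval -1.70 to -0.63). It did not pass the adjustment over all genes (limma adjusted p = 0.594), and neither did any other gene (0%), while 912 genes had an unadjusted p under 0.05. Part of the size of this difference came from line 10980. Without that line, which leaves 1 wt line that is assumed to vary like the fl lines, it was -0.88 (adjusted p = 1.0). Line 10980 also went against the other 4 lines for Thbs1, a secreted matrix glycoprotein, and for Trp53inp1, a p53 target. These genes were chosen after their values were seen. Thbs1 had log2 changes of 3.68 in line 10980 and of -4.07 to -1.89 in the others, and Trp53inp1 of -2.44 against 1.04 to 1.72.

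**Figure D2:**
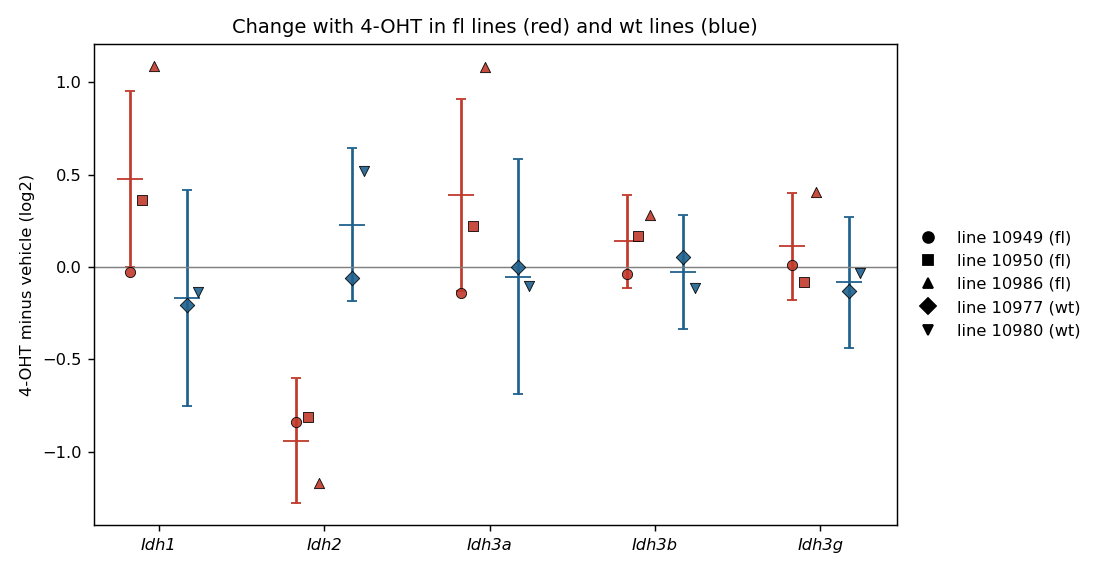
Log2 change with 4-OHT (vertical axis) of each isocitrate dehydrogenase gene (horizontal axis) in the fl lines (red) and the wt lines (blue), with 1 point per line, horizontal ticks at the limma estimates and bars for their 95% intervals. The interval of Idh2 in the fl lines, -1.28 to -0.60, lies below 0, and each of the other 9 intervals includes 0.

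Comparing the lines across genotype, which uses the same arrays in other pairs, Idh2 was lower in fl 4-OHT than in wt 4-OHT cells by a log2 difference of -1.27 (SE 0.24, n = 3 and 2 lines, limma adjusted p = 0.0624). Under vehicle the fl and wt lines differed by -0.10 (SE 0.24, 95% interval -0.64 to 0.44, adjusted p = 0.812). Genes called were 101 of 15662 between the genotypes under 4-OHT (0.645%) and 3 under vehicle (0.0192%). The value under 4-OHT was -0.85 without line 10980 (adjusted p = 0.632) and -1.69 without line 10977, where it passed (adjusted p = 0.0492). Each of these leaves 1 wt 4-OHT array, which is assumed to vary like the other groups, and without line 10977 it is the array with the highest Idh2 level of the 10. It also passed at the same size when only genes above the 50th percentile of level were tested (adjusted p = 0.0487). None of the other 4 members passed either comparison across genotype, with log2 differences between -0.043 and 0.14 under 4-OHT and between -0.51 and -0.070 under vehicle.

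Most monocyte and macrophage markers were higher with 4-OHT in the fl lines, where Idh2 was lower. Of 12 tested markers of this kind, 11 lay above 0 and 1 below, and 3 passed, against 0.153% of all genes called in either direction. The 3 were higher with 4-OHT, Vcan, a matrix proteoglycan, by 1.48 on the log2 scale and the lysosomal protease gene Ctss by 1.40. The transcription factor gene Irf8 was higher by 0.93 (limma adjusted p between 0.0143 and 0.046 for the 3). Without line 10986, where 2.81% of genes were called, 4 of the 12 were called higher. Ccr2, a monocyte chemokine receptor gene, was called lower, by 0.54 (adjusted p = 0.0316). Without its vehicle array and with no line block, where 0.172% were called, 0 of the 12 passed, with a median log2 change of 0.77. The median log2 change over the 12 was 0.91, 0.41 and 0.76 in fl lines 10949, 10950 and 10986, and 0.26 and -0.28 in wt lines 10977 and 10980. Their summed signal was 12019 to 20277 on the fl 4-OHT arrays and 8206 to 12141 on the fl vehicle arrays. It was 9693 to 16513 on the wt 4-OHT arrays and 12576 to 13596 on the wt vehicle arrays. Mrc1, a macrophage receptor gene, was below the level filter. Of 10 tested mature granulocyte markers 8 lay above 0 and 2 below, and 1 passed, against the same 0.153% of all genes. This was the neutrophil collagenase gene Mmp8, higher by 2.56 (adjusted p = 0.0143). It rose by 2.46 without line 10986, and 0 of the 10 passed without the vehicle array of that line and with no line block. The median log2 change over the 10 was 0.26, 0.21 and 0.39 in fl lines 10949, 10950 and 10986. It was 0.24 in wt line 10977, where 9 of the 10 lay above 0, and -0.37 in wt line 10980, where 0 did. Of the 12 MLL-AF9 myeloid progenitor markers 7 lay above 0 and 5 below in the fl lines, with a median log2 change of 0.049. Of 7 tested mast cell and basophil markers 4 lay above 0 and 3 below. In both lists 0 passed, against 0.153% of all genes. Without line 10986, where 2.81% of genes were called, 1 marker of each was called higher. These were Flt3, by 0.64, and Cpa3, by 1.18 (limma adjusted p = 0.0471 and 0.00602). The part of any of these markers in the Idh2 result was not tested.

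Idh1, the cytosolic and peroxisomal NADP-dependent enzyme, had a fl 4-OHT mean above the fl vehicle mean. Idh1 had log2 levels of 11.24, 11.21 and 11.29 on the fl 4-OHT arrays of lines 10949, 10950 and 10986, against 11.27, 10.85 and 10.21 on the fl vehicle arrays. On the wt 4-OHT arrays of lines 10977 and 10980 it had 10.87 and 11.35, against 11.07 and 11.48 on the wt vehicle arrays. The fl 4-OHT levels were within 0.1 of each other, and the spread in the fl lines lay in the vehicle arrays, of which that of line 10986 was the lowest of all 10. The changes were -0.029, 0.36 and 1.09 in the fl lines, with an estimate of 0.47 (SE 0.20, n = 3 lines, limma adjusted p = 0.407). It was 0.17 without line 10986, 0.19 without its vehicle array and with no line block, and 0.73 without line 10949, and passed in none. In the wt lines they were -0.20 and -0.13, with an estimate of -0.17 (SE 0.24, n = 2 line pairs, adjusted p = 1.0).

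Idh3a encodes the catalytic subunit of the NAD-dependent enzyme. Its log2 levels were 11.63, 11.19 and 11.54 on the fl 4-OHT arrays of lines 10949, 10950 and 10986, against 11.77, 10.96 and 10.46 on the fl vehicle arrays. The wt 4-OHT arrays of lines 10977 and 10980 had 11.44 and 11.37, against 11.45 and 11.47 on the wt vehicle arrays. The groups overlapped, and the vehicle array of line 10986 was again the lowest. The changes in the fl lines were -0.14, 0.22 and 1.08, with an estimate of 0.39 (SE 0.22, n = 3 lines, limma adjusted p = 0.559). It was 0.042 without line 10986, 0.085 without its vehicle array and with no line block, and 0.65 without line 10949, and passed in none.

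The regulatory subunit genes Idh3b and Idh3g had the narrowest ranges over the 10 arrays. Idh3b had log2 levels of 11.996, 11.94 and 11.97 on the fl 4-OHT arrays of lines 10949, 10950 and 10986, against 12.03, 11.77 and 11.68 on the fl vehicle arrays. It had 11.85 and 11.88 on the wt 4-OHT arrays of lines 10977 and 10980, against 11.80 and 11.995 on the wt vehicle arrays. The groups overlapped, with an estimate of 0.14 in the fl lines (SE 0.11, n = 3 lines, limma adjusted p = 0.709), and 0.067 without line 10986 and likewise without its vehicle array and the block. It was 0.23 without line 10949. Idh3g had 12.74, 12.60 and 12.51 on the fl 4-OHT arrays of the same lines, against 12.73, 12.68 and 12.10 on the fl vehicle arrays. It had 12.67 and 12.65 on the wt 4-OHT arrays, against 12.80 and 12.68 on the wt vehicle arrays. These groups overlapped too, with an estimate of 0.11 in the fl lines (SE 0.12, n = 3 line pairs, adjusted p = 0.859). Without line 10986 the Idh3g estimate was -0.036, and without the vehicle array and the block -0.088. It was 0.21 without line 10950. For the 3 subunit genes the estimates in the wt lines were between -0.081 and -0.028 on the log2 scale, and none passed.

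By mean log2 level the lowest group was fl 4-OHT for Idh2 and fl vehicle for the other 4 genes. For Idh3b and Idh3g this place of fl vehicle rested on the vehicle array of line 10986. Without that array and the block, fl vehicle minus wt vehicle was 0.0024 for Idh3b. For Idh3g, fl 4-OHT minus fl vehicle was then -0.088. Idh2 averaged 10.12 ± 0.24 in fl 4-OHT and 11.06 ± 0.16 in fl vehicle cells (SD, n = 3 each), and 11.39 ± 0.60 in wt 4-OHT and 11.16 ± 0.19 in wt vehicle cells (SD, n = 2 each). The other 3 groups lay within 1 SD of wt 4-OHT of each other. Idh1 averaged 11.25 ± 0.042 in fl 4-OHT, 10.77 ± 0.53 in fl vehicle, 11.11 ± 0.34 in wt 4-OHT and 11.28 ± 0.29 in wt vehicle cells. Idh3a averaged 11.45 ± 0.23, 11.06 ± 0.66, 11.41 ± 0.053 and 11.46 ± 0.018 in the same groups. The highest mean was in wt 4-OHT for Idh2, in fl 4-OHT for Idh3b and in wt vehicle for Idh1, Idh3a and Idh3g. For Idh1 and Idh3a the ranges mean ± SD of neighbouring groups overlapped. Levels of different genes were not compared, since each probe set has its own response.

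Over the 10 arrays, Idh1 and the 3 subunit genes varied together more than any of them did with Idh2. Pearson correlations among Idh1, Idh3a, Idh3b and Idh3g were between 0.52 and 0.85, and those of Idh2 with the 4 were between -0.41 and 0.0077. The arrays share 5 lines and 2 treatments, so these are descriptions. The vehicle array of line 10986, lowest for all 4, moved these values. Over the other 9 arrays the correlations among the 4 were between -0.20 and 0.76, and those of Idh2 with them between -0.42 and 0.35. There the order did not hold for Idh3g, which had 0.35 with Idh2 and -0.20 to 0.20 with Idh1, Idh3a and Idh3b.

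The genes whose log2 levels correlated most with Idh2 over the 10 arrays were Dhx30, an RNA helicase with a role in mitochondrial ribosome assembly (Pearson r = 0.987), the bromodomain protein gene Brd3 (0.975), Lrrc14 (0.973), Dennd5a (0.972) and the tyrosine kinase gene Abl1 (0.971). Without the vehicle array of line 10986 these were between 0.970 and 0.991. The differences between fl 4-OHT and fl vehicle were smaller in these genes than in Idh2, with log2 values between -0.54 for Abl1 and -0.35 for Dhx30, and none passed. By the distance of the 5 line changes, the sizes included, the nearest gene to Idh2 was Abca2, a lipid transporter of the ABC family. Its changes were -0.82, -0.73 and -1.25 in the fl lines and 0.0083 and 0.36 in the wt lines (distance 0.204, fl estimate -0.93, limma adjusted p = 0.0799). Next came Mta1, a subunit of a nucleosome remodelling and deacetylase complex, at a distance of 0.308 (fl estimate -0.89, adjusted p = 0.0689). Rnu12, Ulk2 and Gramd1a followed at 0.373 to 0.433.

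**Figure D3:**
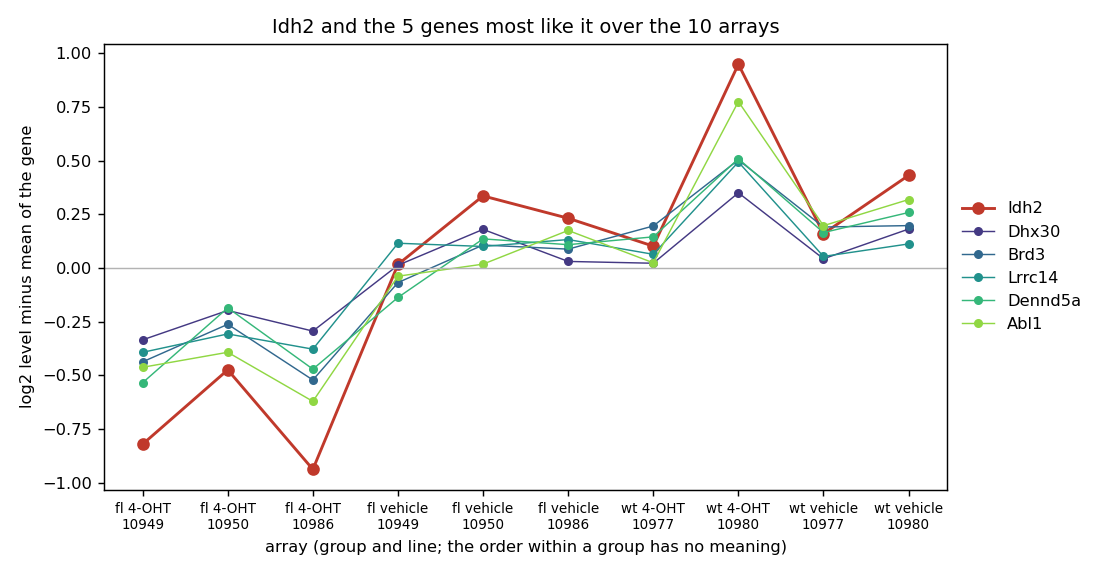
Log2 level minus the mean of the gene over the 10 arrays (vertical axis) for Idh2 (thick red line) and the 5 genes of highest Pearson correlation with it, on each array (horizontal axis, labelled by group and line). All 6 genes lie below their means on the 3 fl 4-OHT arrays and highest on the wt 4-OHT array of line 10980, and Idh2 spans the widest range.

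For the other members the genes of highest correlation were Csnk1a1, Kdm5a and Sf3a3 for Idh1 (r = 0.972 to 0.981) and Uxt, Sec11c and Tmem242 for Idh3a (0.990 to 0.996). They were Psmb1, Akirin1 and Cox4i1 for Idh3b (0.964 to 0.985) and Gbe1, Seh1l and Rdx for Idh3g (0.960 to 0.962). Without the vehicle array of line 10986 those of Idh3g were 0.725 to 0.832, and those of the other 3 genes 0.922 to 0.992.

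For the genes beside Idh2 on chromosome 7 the fl estimates were nearer to 0. In the gene order of RefSeq, among genes with a probe set of their own, Zfp710 and Arpin lay on one side, with fl estimates of -0.099 and 0.032 on the log2 scale. Sema4b and Cib1, on the other side, had 0.13 and -0.0027. The value of Cib1 averages changes of -0.47, -0.25 and 0.71 in lines 10949, 10950 and 10986. None of the 4 passed (limma adjusted p between 0.710 and 1.0).

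Enzymes around the isocitrate step showed no called change in the fl lines. With 0.153% of all genes called there, a count of 0 here or below does not set a list of this size apart. Of 14 tested genes of the citric acid cycle outside isocitrate dehydrogenase 0 passed, against 0.153% of all genes, with 11 above 0 and 3 below, and a median log2 change of 0.13 (all genes tested had a median of -4.03e-05). The line medians were -0.047, 0.11 and 0.42 in lines 10949, 10950 and 10986, and the list median was 0.0035 without line 10986 and 0.029 without its vehicle array and the block. Suclg2 and Sucla2, alternative subunits of succinyl-CoA ligase, had the largest values, 0.52 (SE 0.16, limma adjusted p = 0.241) and 0.49 (SE 0.29, adjusted p = 0.585). Of 11 genes for the entry of pyruvate into the cycle 0 passed, with a median of 0.023. The pyruvate dehydrogenase kinase genes Pdk3 and Pdk1 had 0.52 (SE 0.24) and -0.48 (SE 0.19).

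Other sources and users of NADPH were likewise not called. Among 13 tested genes of other NADPH producers 0 passed, against 0.153% of all genes. Their median log2 change in the fl lines was 0.051. Me2, a mitochondrial malic enzyme, had 0.39 (SE 0.18) and Mthfd2l, a mitochondrial folate enzyme, had -0.32 (SE 0.12). Without line 10986 Mthfd2l fell by 0.48 and passed, the 1 of 13 to do so (limma adjusted p = 0.0371, 2.81% of all genes called). Among 11 genes for mitochondrial use of NADPH and antioxidant defence 0 passed, against the same share of 0.153%, with a median of 0.098. Txnrd1, a thioredoxin reductase of the cytosol, had 0.40 (SE 0.10) and Prdx3, the mitochondrial peroxiredoxin, had 0.39 (SE 0.31).

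Genes that supply or carry 2-oxoglutarate and citrate had a median log2 change of 0.025 over 16 tested. Of these 0 passed, against 0.153% of all genes. The aminotransferase genes Got1 and Bcat1 had 0.63 (SE 0.15, limma adjusted p = 0.169) and 0.61 (SE 0.26, adjusted p = 0.403). Of the 3 tested genes of 2-hydroxyglutarate metabolism 0 passed, against the same share of all genes, and the median was -0.11. Phgdh, an enzyme of serine synthesis that can also make 2-hydroxyglutarate, had -0.17 (SE 0.11), and D2hgdh, which oxidises it, had -0.11 (SE 0.13).

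Among the metabolic and mitochondrial lists, that of the enzymes that consume 2-oxoglutarate held the widest range. It was also the longest, with 42 genes tested against 3 to 16 in the others, and a range widens with the number of genes. Of 42 tested dioxygenase genes 0 passed in the fl lines, against 0.153% of all genes. Of the 42, 22 lay above 0 and 20 below, and the median log2 change was 0.019. Phf2, a Jumonji-family histone demethylase gene, had changes of -0.98, -1.28 and -1.80 in lines 10949, 10950 and 10986 and of -0.081 and 0.22 in lines 10977 and 10980. Its fl estimate was -1.36 (SE 0.17, limma adjusted p = 0.0557). Under 4-OHT Phf2 was the only one of the 42 that passed between genotypes, against 0.645% of all genes called in that comparison. Its log2 difference between fl 4-OHT and wt 4-OHT cells was -1.37 (SE 0.21, limma adjusted p = 0.037). Kdm7a, another demethylase gene of that family, had 0.90, 1.03 and 1.48 in the fl lines and 0.27 and -0.63 in the wt lines, with a fl estimate of 1.14 (SE 0.19, adjusted p = 0.094). Without line 10986, 3 of the 42 passed, against 2.81% of all genes in that fit. Phf2 and Kdm4c fell by 1.13 and 0.83 and Kdm7a rose by 0.96 (adjusted p between 0.00598 and 0.0389). Without its vehicle array alone and with no line block, Phf2 passed (-1.18, limma adjusted p = 0.0492) and no other gene of these lists did. In that fit 0.172% of all genes were called.

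**Figure D4:**
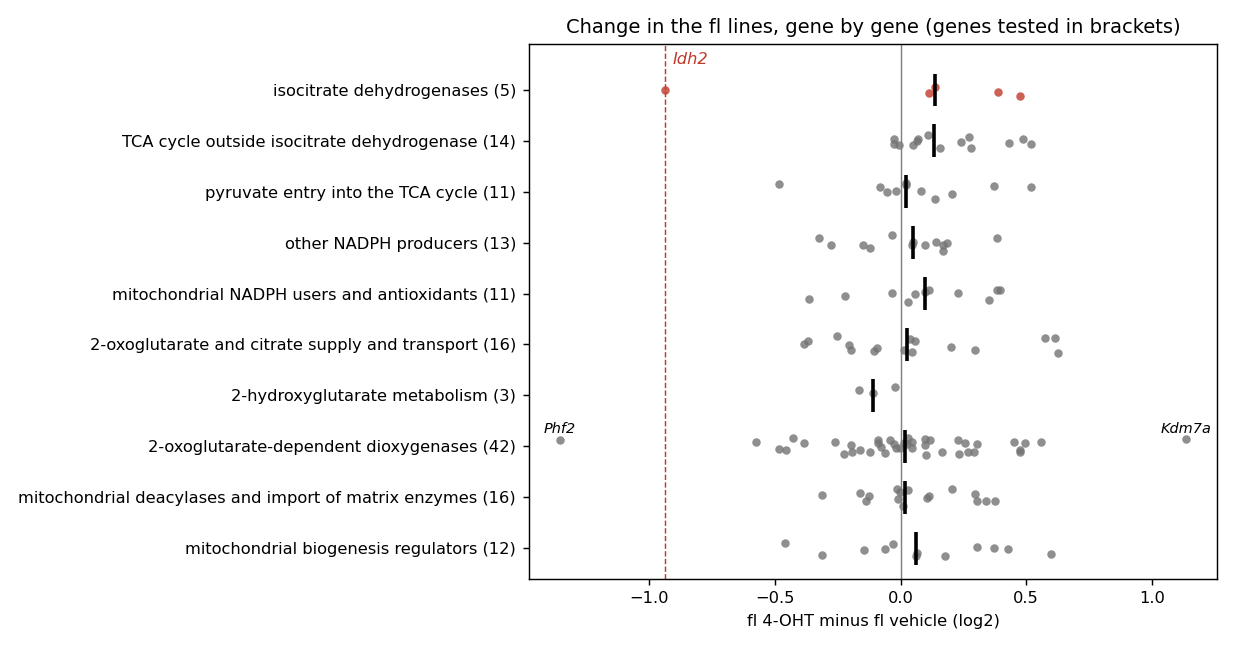
Log2 change between fl 4-OHT and fl vehicle (horizontal axis) of each tested gene of the isocitrate dehydrogenase and surrounding lists (vertical axis, number of genes in brackets), with 1 point per gene, black ticks at list medians and a dashed line at Idh2. Of these genes Phf2, at -1.36, is the only one further below 0 than Idh2, and the list medians lie between -0.11 and 0.14.

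Genes for the import and care of mitochondrial matrix proteins and for mitochondrial biogenesis gave the same count. Of 16 tested deacylase and import genes 0 passed, against 0.153% of all genes, and the median log2 change was 0.019. Pmpcb, a subunit of the protease that removes the import signal of matrix enzymes, had 0.37 (SE 0.18), and Tomm22, an import receptor of the outer membrane, had 0.34 (SE 0.19). Of 12 regulators of mitochondrial biogenesis 0 passed, against the same share of all genes, and the median was 0.063. Tfb2m, a mitochondrial transcription factor, had 0.60 (SE 0.33) and Nrf1, a nuclear regulator of respiratory genes, had -0.46 (SE 0.11). Without line 10986, 2 of the 12 passed, against 2.81% of all genes in that fit: Nrf1 and Tfam, which packages mitochondrial DNA, fell by 0.51 and 0.57 (limma adjusted p = 0.0478 and 0.0443). Several small list medians turned sign without line 10986. They were -0.064 for biogenesis, -0.11 for deacylases and import, -0.038 for NADPH users, -0.050 for 2-oxoglutarate and citrate supply and -0.016 for pyruvate entry. Without its vehicle array and the block these were -0.036, -0.10, 0.021, -0.0073 and -0.026, and the dioxygenase median was -0.0051. An unadjusted limma p under 0.05 in the fl lines was held by 1931 of 15662 genes. By list it was held by 11 of 42 dioxygenase genes, 6 of 16 supply genes and 4 of 11 NADPH users. The counts were 2 of 16 for deacylases and import, 2 of 12 for biogenesis and 1 of 14 for the citric acid cycle. They were 1 of 13 for other NADPH producers, 1 of 11 for pyruvate entry and 0 of 3 for 2-hydroxyglutarate metabolism. Whether a list differs from all genes was not tested. In the wt lines, and in the difference between fl and wt lines, no gene of any of these lists passed.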

How the data were processed

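RNA of c-Kit-sorted cells was measured on 10 one-colour arrays. Per the labels' protocols, the culture medium held SCF (20 ng/mL), IL-6 and IL-3 (10 ng/mL) and 20% serum, and 200 ng of Trizol RNA was labelled with the Ambion WT kit. The deposited intensity values were made by the authors with RMA, per the submitters' processing notes, which evens the signal distributions of the arrays, so a shift of all genes would not be seen. The sources used here give neither a version nor a genome build. Values are linear and log2 was taken here. Arrays have no read depth.

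Of 35556 probe sets, 21789 had 1 symbol in the platform annotation, 1621 had several and 12146 were not listed there and are unnamed here. The probe set with the highest mean represented a gene (19938 genes), and tests covered genes with a mean log2 level of at least 6.23, which is the 25th percentile over all probe sets. limma 3.58.1 in R 4.3.3 was fitted to all genes and 10 arrays with the line as a block and separate 4-OHT terms for fl and wt lines, with two-sided tests and Benjamini-Hochberg adjustment at 0.05. For genotype comparisons the 4 group means were fitted, and the line was a random block (correlation 0.165, statmod 1.5.0). Scripts were tested on simulated data.

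Per the series design the cells of every line received both treatments, so the line pairs the arrays. Deviations of a line's arrays from their group means gave correlations of 0.78 (line 10949), 0.22 (10950), -0.064 (10986) and 0.43 (10977, and likewise 10980). The sources used here do not say whether a line's cultures were handled together.

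The 18 gene lists and the members were chosen with earlier results of these data known. Named genes were the members, Zfx and Kit, up to 4 passing genes of each list that holds no cell markers, or the 2 of largest change where fewer than 2 passed, the nearest genes on each side of Idh2, and the genes most like each member (5 for Idh2 by each measure, 3 for the others). Genes named as passing without line 10986, the marker genes, Thbs1 and Trp53inp1 were chosen after their values were seen. Alternatives changed the block, the level filter, the scaling, the variance prior, the array weights or the arrays used. Counts of list members and correlations without line 10986 or its vehicle array were added after seeing the data.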

Additional observations from a re-analysis of the deposited data

Results flagged for a closer look

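Of 49 named genes, 11 moved one way with 4-OHT in all 3 fl lines and the other way in both wt lines. The share of all genes that did so was not counted, so 11 of 49 is not a result about the named genes. Some of the changes were near 0, as for Csnk1a1 and Kdm5a in line 10949 (0.0019 and 0.011). The test of the difference between fl and wt lines passed for none of the 11 over all genes (limma adjusted p between 0.563 and 0.927). Lower in the fl lines were Abca2 and Mta1, with differences of -1.12 and -1.04 between the fl and wt log2 changes, and Lrrc14 and Brd3, with -0.67 and -0.60. These 4 were named for their likeness to Idh2. Higher in the fl lines were Rdx, with a difference of 0.79, Gbe1 with 0.78 and Pdk3 with 0.73. Pmpcb had a difference of 0.47, Me2 of 0.42, Kdm5a of 0.35 and Csnk1a1 of 0.23. Rdx and Gbe1 were named for their likeness to Idh3g, and Kdm5a and Csnk1a1 for theirs to Idh1. Pdk3, Pmpcb and Me2 were named for the size of their fl change within their lists. Groups of 2 or 3 arrays were too small for a check of single outlying arrays.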

How the results depend on the processing

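The log2 difference of Idh2 between fl 4-OHT and fl vehicle stayed below 0 under all 18 alternatives, between -1.0 and -0.82, and passed under 2 of them. With array weights, a fit that stopped before convergence, it was -0.84 (limma adjusted p = 0.000323), and leaving out 1 line in turn gave -1.0 to -0.82. With no replicate block it was -0.94 (adjusted p = 0.151), and the missing block changed no call on a member. The difference between fl and wt lines for Idh2 was -1.07 with array weights and passed (adjusted p = 0.0155). Genes called in the fl lines numbered 24 as reported. The count was 83 with a random replicate block, 8 with no level filter, 14 with a filter at the 50th percentile and 0 over all probe sets. It was 3 with arrays centred on their median, 61 with quantile normalization, 3907 with array weights, 0 on the fl arrays alone and 0 to 440 without 1 line. Over the alternatives the counts were 0 to 359 for the difference between fl and wt lines (0 as reported), 0 to 1106 between genotypes under 4-OHT (101) and 0 to 6237 under vehicle (3), each highest with array weights. In that fit Idh2 between genotypes under 4-OHT (-1.40) and Idh1 (-0.43) and Idh3a (-0.49) under vehicle also passed. Values that changed sign were of results that did not pass. With array weights the fl estimates of Idh3a and Idh3b were -0.075 and -0.0085, the Idh3a difference between fl and wt lines was -0.023 and Idh2 between genotypes under vehicle was 0.034. Without the vehicle array of line 10986 and the block, Idh3g had a fl estimate of -0.088 and a difference of -0.0071, and Idh3b under vehicle had 0.0024. Leaving out 1 line in turn, the fl estimate of Idh3g was -0.036 to 0.21, and the wt estimates were -0.058 to 0.52 for Idh2 and -0.11 to 0.055 for Idh3b. In fl 4-OHT minus wt 4-OHT cells the values were -0.10 to 0.38 for Idh1, -0.045 to 0.17 for Idh3a and -0.10 to 0.0093 for Idh3g. In fl vehicle minus wt vehicle cells they were -0.24 to 0.035 for Idh2 and -0.17 to 0.028 for Idh3b. The causes were not tested.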
